A study of Mus musculus with 6 samples.

Results

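Complement is the plasma and cell surface cascade that tags particles and cells with C3 fragments. The genes described here are 9 of the 14408 genes listed in the study's expression table, chosen by name from the complement system. They are the classical pathway proteases C1ra and C1s1, the classical pathway component C4b, the alternative pathway protease Cfb, the central component C3, the secreted inhibitor Serping1, and the membrane regulators Cd55, Cd46 and Cd59a. All 9 symbols were listed, C1s under its mouse symbol C1s1. Of the 9, 7 had a mean of at least 1 FPKM (fragments scaled to gene length and to the library's total) over the 6 libraries and were tested, and C4b and Cd46 lay under that filter.

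RNA was profiled in 3 libraries from L-proline mice and 3 from PBS mice, all from tissue that the labels call left ventricle. The L-proline mice were C57BL/6J males aged 8 weeks when housed. They had a high-fat diet for 8 to 12 weeks with L-NAME, which blocks the enzymes that make nitric oxide, at 0.5 g/L of drinking water, and then L-proline at 300 mg/kg daily by the intraperitoneal route over 4 to 8 weeks. The PBS mice had the same strain, sex, age, diet and L-NAME, with PBS as the injected vehicle. The diet and L-NAME, used to model heart failure with preserved ejection fraction, were thus shared by both groups, and the comparison is of L-proline on top of them. The labels do not say that the libraries came from separate animals, and p-values here reflect only library-to-library spread, which could be technical.

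The libraries held 34990473 to 37498030 fragments, and libraries of 1 group differed by more than counting noise (chi-square over degrees of freedom, 8.08 to 82.8). The defining markers of heart muscle were low or not listed: 2 of 13 cardiomyocyte markers reached a mean of 1 FPKM (Tnnt2 and Nkx2-5), and Tnni3, Ttn, Ryr2 and Myl2 were listed at no more than 0.212 FPKM in any library. The 6 listed ones summed to 16.8 to 19.96 FPKM in L-proline libraries and 34.8 to 36.5 FPKM in PBS libraries. Tnnt2 carried most of this difference (means of 14.55 FPKM with L-proline and 31.99 FPKM with PBS), and Nkx2-5 did not pass (3.34 FPKM with L-proline and 3.43 FPKM with PBS; limma, adjusted p = 0.829). All 7 listed fibroblast markers (of 10) reached a mean of 1 FPKM, with summed levels of 2774 to 3140 FPKM in L-proline libraries and 2052 to 2096 FPKM in PBS libraries. Collagen genes made up most of that sum, with Col3a1 at means of 1824 FPKM with L-proline and 1226 FPKM with PBS, while Pdgfra fell (5.97 ± 0.135 FPKM with L-proline, 7.84 ± 0.463 FPKM with PBS; SD, n = 3 each; limma, adjusted p = 0.0215). The 4 listed mesothelial markers (of 8) summed to 26.3 to 27.5 FPKM with L-proline and 51.2 to 52.6 FPKM with PBS. The groups did not overlap in these 3 sums, whose part in the results on complement genes was not tested. Of other cells known to make complement proteins, hepatocytes had 0 of 8 markers listed and adipocytes 0 of 5. Macrophages had 7 of 12 listed, without Adgre1, Ptprc and Itgam, and 3 (Cd68, Lyz2 and Cd14) reached a mean of 1 FPKM. The 7 summed to 22.0 to 25.7 FPKM in L-proline libraries and 19.8 to 22.3 FPKM in PBS libraries. Cd14 made up most of that sum, with means of 16.5 FPKM with L-proline and 15.6 FPKM with PBS. Pericytes and smooth muscle had 9 of 11 markers listed, of which 7 reached a mean of 1 FPKM. Those 9 summed to 1104 to 1322 FPKM in L-proline libraries and 1210 to 1342 FPKM in PBS libraries. Endothelial cells had 5 of 10 markers listed, of which 0 reached a mean of 1 FPKM. In bulk RNA, fewer cells of a type and less RNA per cell cannot be told apart.

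The classical pathway starts when C1q binds antibody or a surface, which activates the proteases C1r and C1s; C1s then cleaves C4 and C2. The alternative pathway runs on C3 itself, with factor B, the product of Cfb, as the protease of its C3-cleaving enzyme. Both routes meet at C3, whose fragments mark a surface and lead on to the membrane attack complex. Host cells carry regulators that act at separate steps: C1 inhibitor (Serping1) blocks C1r and C1s, CD55 takes apart the enzymes that cleave C3, CD46 helps factor I to inactivate C3b and C4b, and CD59 stops the membrane attack complex. Most circulating complement comes from the liver, while fibroblasts and other stromal cells are known to make C3, C1r, C1s and factor B locally.

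The promoters of the 3 most abundant members are shown because the levels of known inducers of complement genes are given further on. RefSeq start sites in build GRCm38.p6 were found for 6 of the 9 members, without C4b, Cfb and Serping1. The study's processing notes name another build, GRCm39, so these positions are not positions in the study's files. Each sequence is the 250 bases before the start, 5′ to 3′ on the gene's own strand, and capitals mark matches to any of 3 motifs searched on both strands. The C3 sequence lies at chr17:57228137-57228386, minus strand, that of C1s1 at chr6:124542360-124542609, minus strand, and that of C1ra at chr6:124512371-124512620, plus strand.
C3: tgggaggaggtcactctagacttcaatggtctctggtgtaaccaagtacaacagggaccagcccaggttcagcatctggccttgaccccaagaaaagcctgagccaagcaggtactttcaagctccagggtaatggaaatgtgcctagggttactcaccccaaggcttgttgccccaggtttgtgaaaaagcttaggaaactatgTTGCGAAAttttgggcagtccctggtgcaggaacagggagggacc
C1s1: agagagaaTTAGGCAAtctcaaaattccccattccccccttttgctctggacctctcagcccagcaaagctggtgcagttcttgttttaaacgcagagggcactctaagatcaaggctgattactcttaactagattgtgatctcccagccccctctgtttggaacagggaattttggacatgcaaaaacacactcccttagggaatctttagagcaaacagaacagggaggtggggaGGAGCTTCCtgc
C1ra: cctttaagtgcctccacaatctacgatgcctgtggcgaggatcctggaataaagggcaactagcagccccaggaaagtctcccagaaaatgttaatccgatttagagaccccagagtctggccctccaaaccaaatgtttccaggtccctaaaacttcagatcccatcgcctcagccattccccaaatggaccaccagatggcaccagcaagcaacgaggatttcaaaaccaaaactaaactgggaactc

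In C3 the capitals are a match to the C/EBP motif (TTGCNNAA), whose first base lies 45 bases before the start. C1s1 held a C/EBP match 242 bases and an NF-kB match (GGNNNTTCC) 12 bases before its start; a further C1s1 start in the same table lies 38 bases downstream and kept the NF-kB match only. C1ra held none of the 3. Among the membrane regulators, the window of Cd55 held an NF-kB match and that of Cd59a a match to the IRF motif (GAAANNGAA), and Cd46 held none. No match overlapped another. Of all 32851 windows in the table, 9.56% held the C/EBP motif, 15.7% the NF-kB motif and 7.13% the IRF motif. A match is a description of these letters and not a measured binding site.

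In levels scaled to gene length, the classical proteases and C3 stood far above the rest. C1s1 had the highest mean over the 6 libraries (154 FPKM), followed by C3 (106 FPKM) and C1ra (68.6 FPKM). These 3 genes lay at or above 97.5%, 96.1% and 93.4% of all listed genes. Cfb came next (15.2 FPKM), and these top 4 did not overlap with each other in any library. Cd59a (4.42 FPKM), Serping1 (3.54 FPKM) and Cd55 (3.51 FPKM) followed, and neighbours among these 3 overlapped in range. C4b (0.219 FPKM) and Cd46 (0.203 FPKM) were lowest and overlapped with each other. Their order also turned between groups, with C4b above Cd46 in L-proline means and Cd46 above C4b in PBS means.

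**Figure D1:**
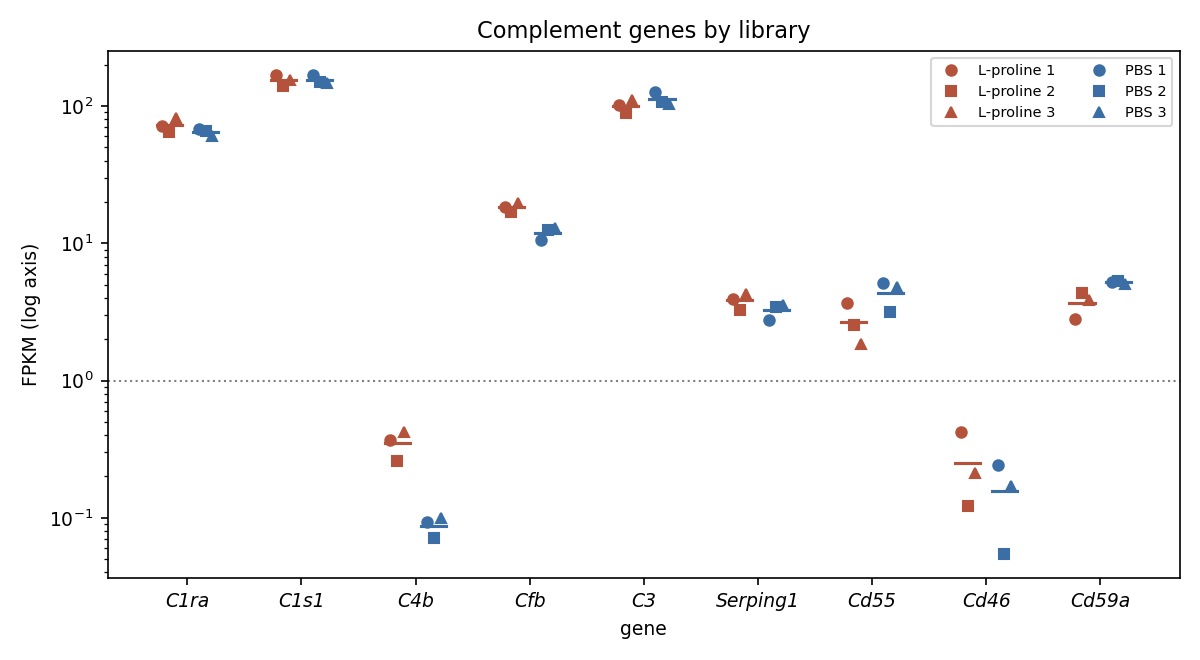
FPKM (log axis) of the 9 complement genes in each library, L-proline left of PBS; symbols are libraries, short lines are group means (n = 3) and the dotted line is the filter at 1 FPKM. C1s1, C3 and C1ra lie between 60.8 and 169 FPKM in all libraries, and C4b and Cd46 lie under the dotted line in both groups.

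Of the 7 tested members, 1 rose in L-proline libraries, 0 fell and 6 did not pass (limma, Benjamini-Hochberg adjusted p under 0.05). Over all 10500 tested genes, 19.6% passed in either direction and 7.50% rose, so 1 member of 7 is near the background. The median log2 fold change was -0.01 over the 7 tested members and -0.06 over all tested genes. The groups did not overlap for 2 of the 7, Cfb and Cd59a, against 40.1% of all tested genes. Leaving out L-proline 1 raised the number of members past the threshold to 2, with Cd55 lower. Leaving out L-proline 2 also gave 2, with Cd59a lower. Over all 10500 tested genes, 2762 passed without L-proline 1 and 1528 without L-proline 2, against 2056 with all libraries.

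Cfb, which codes for factor B, was the member that rose. It stood at 18.5, 16.9 and 19.8 FPKM in L-proline libraries 1, 2 and 3, and at 10.6, 12.4 and 12.9 FPKM in PBS libraries 1, 2 and 3. Every L-proline library was above every PBS library. The means were 18.4 ± 1.43 FPKM with L-proline and 12.0 ± 1.19 FPKM with PBS (SD, n = 3 each), a ratio of 1.54. On the log2(FPKM + 1) scale, which understates changes of low values, the fold change was 0.58 ± 0.10 (standard error; limma, adjusted p = 0.00578). The values rested on 1638 to 2013 fragments per L-proline library and 1102 to 1308 fragments per PBS library. In GENCODE M21, 79.5% of the exonic bases of Cfb are also annotated to Gm20547, a gene model that also covers part of the neighbouring gene C2. The counting of fragments shared by these models is unknown here, so the level of Cfb may leave out or include some of them. C2 itself, the classical pathway counterpart of factor B, did not exceed 0.06485 FPKM in any library.

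C3, the protein that factor B acts with, did not pass. Its levels were 102, 88.3 and 111 FPKM in L-proline libraries and 125, 107 and 104 FPKM in PBS libraries. The groups overlapped, with PBS 1 the highest and L-proline 2 the lowest library. The log2 fold change was -0.16 ± 0.11 (limma, adjusted p = 0.326), with a 95% interval from -0.40 to 0.09. The ratio of Cfb to C3 within a library, both as FPKM, was 0.181, 0.191 and 0.178 with L-proline and 0.08465, 0.1165 and 0.1237 with PBS. This ratio did not overlap between groups (two-sided exact permutation p = 0.1, the smallest that 3 against 3 allows). Its means were 0.1836 ± 0.006925 in L-proline libraries and 0.108 ± 0.0208 in PBS libraries (SD, n = 3 each). Cfb alone did not overlap either, so the ratio is not a result independent of the rise in Cfb.

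The classical proteases were abundant and did not pass. C1s1, the enzyme that cleaves C4, stood at 167, 139 and 155 FPKM in L-proline libraries and 169, 149 and 146 FPKM in PBS libraries. The groups lay on top of each other, with a log2 fold change of -0.01 ± 0.09 and a 95% interval from -0.22 to 0.20 (limma, adjusted p = 0.94). Its sign turned under some settings, without a call. C1ra, which activates C1s, had 71.35, 64.4 and 81.5 FPKM with L-proline and 67.8, 65.5 and 60.8 FPKM with PBS. Its log2 fold change was 0.16 ± 0.10, with a 95% interval from -0.06 to 0.37 (limma, adjusted p = 0.278). C1ra and C1s1 each have a near copy beside them in the mouse: 48% of the 50-base words of the longest C1ra transcript also occur in C1rb, and 24.3% of those of C1s1 in C1s2. The division of fragments within these pairs is therefore uncertain. The 4 genes of these pairs and C1rl lie side by side in RefSeq's GRCm38.p6 annotation. In GENCODE M21, 18.4% of the exonic bases of C1s1 are also annotated to another gene model, Gm16567. C1s1 levels were 2.34, 2.16 and 1.90 times those of C1ra in L-proline libraries and 2.495, 2.27 and 2.41 times in PBS libraries, which overlapped (two-sided exact permutation p = 0.2).

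C4b, whose product is the substrate of C1s and part of the classical C3-cleaving enzyme, was low in all libraries but showed the largest ratio between groups of the 9 members. It stood at 0.368, 0.261 and 0.422 FPKM in L-proline libraries and 0.09245, 0.0711 and 0.0994 FPKM in PBS libraries. In fragments these were 74, 50 and 85 with L-proline and 19, 14 and 20 with PBS. The lowest L-proline library thus held more C4b fragments than the highest PBS library. The means were 0.350 ± 0.0819 FPKM with L-proline and 0.08765 ± 0.01475 FPKM with PBS (SD, n = 3 each), a ratio of 3.99. C4b was under the filter and has no call in the test over the 10500 genes. With the filter lifted, 14.7% of 14408 genes passed and C4b was among them, 0.31 higher on the log2(FPKM + 1) scale (limma, adjusted p = 0.00916). On recovered fragments with no filter, an alternative chosen after seeing the data, its log2 fold change was 1.96 ± 0.36 (limma voom, adjusted p = 0.00972). Of the 50-base words of the C4b transcript, 35.2% also occur in transcripts of its copy C4a, so fragments of C4a may be counted in these values.

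**Figure D2:**
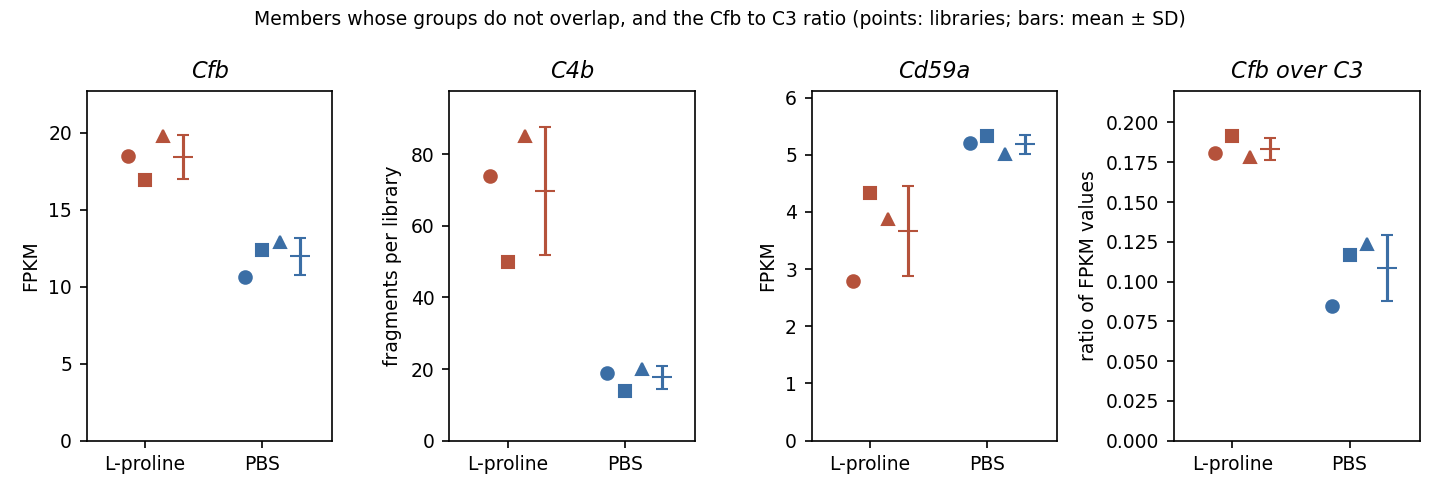
Values by library of the 3 members whose groups do not overlap, with L-proline left of PBS, and of the Cfb to C3 ratio; points are libraries, with the same symbols as in the plot of all members, and bars are mean ± SD (n = 3). Cfb lies at 16.9 FPKM or more with L-proline and 12.9 FPKM or less with PBS. C4b lies at 50 or more fragments with L-proline and 20 or fewer with PBS, and Cd59a lies lower with L-proline. Of all 14408 listed genes, 5219 did not overlap between groups, against 3 of the 9 members.

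Serping1, the inhibitor of C1r and C1s, stood at 3.94, 3.28 and 4.26 FPKM in L-proline libraries and 2.74, 3.45 and 3.56 FPKM in PBS libraries. The groups overlapped, since L-proline 2 lay below both PBS 2 and PBS 3. The log2 fold change was 0.18 ± 0.12, with a 95% interval from -0.09 to 0.45 (limma, adjusted p = 0.296).

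Among the membrane regulators, Cd59a and Cd55 had lower means with L-proline, and neither passed. Cd59a, which blocks assembly of the membrane attack complex, stood at 2.79, 4.325 and 3.88 FPKM in L-proline libraries and 5.21, 5.325 and 5.01 FPKM in PBS libraries. All L-proline libraries lay below all PBS libraries, and the L-proline libraries were spread more widely, with an SD of 0.791 FPKM against 0.161 FPKM with PBS. The log2 fold change was -0.42 ± 0.13, with an unadjusted 95% interval from -0.72 to -0.12 (limma, adjusted p = 0.0555). The adjusted p of Cd59a was 0.0415 without L-proline 2, 0.0408 with equal sums after leaving out the most abundant genes and 0.0358 with sample weights, and it ranged from 0.0358 to 0.16 over its 17 alternatives. Cd55, which speeds the decay of C3-cleaving enzymes, stood at 3.67, 2.53 and 1.83 FPKM with L-proline and 5.11, 3.13 and 4.76 FPKM with PBS. The groups overlapped, because L-proline 1 lay above PBS 2. Its log2 fold change was -0.55 ± 0.21 (limma, adjusted p = 0.101). The adjusted p of Cd55 was 0.0205 without L-proline 1 and 0.0032 with sample weights, and it ranged from 0.0032 to 0.283 over 17 alternatives. Near copies share 10.7% of the 50-base words of Cd55 (Cd55b) and 3.98% of those of Cd59a (Cd59b).

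Cd46, which in the mouse is known mainly from the testis, was barely detected. It had 0.418, 0.121 and 0.213 FPKM in L-proline libraries and 0.244, 0.0546 and 0.169 FPKM in PBS libraries, from 13 to 47 fragments with L-proline and 6 to 28 fragments with PBS. The groups overlapped (two-sided exact permutation p = 0.5, where 3 against 3 allows no less than 0.1). On recovered fragments with no filter its log2 fold change was 0.73 ± 0.65, with a 95% interval from -0.75 to 2.21 (limma voom, adjusted p = 0.478). Exons of other gene models cover 14.2% of its exonic bases.

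The lowest library of each group was counted over the 9 members. L-proline 2 was the lowest L-proline library for 7 of the 9 members and for 19.6% of tested genes. It was also the library with the fewest fragments, 34990473, and the part of this in the members' values was not tested. Among PBS libraries, PBS 3 was the lowest for 4 members, PBS 2 for 3 and PBS 1 for 2. In the same order, they were the lowest PBS library for 22.3%, 39.4% and 38.3% of tested genes.

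The rest of the complement system was followed with a list of 52 other genes, of which 23 were listed and 11 tested. Of these 11, 4 rose in L-proline libraries, 1 fell and 6 did not pass, against 19.6% of all tested genes past the threshold in either direction and 7.50% higher. The median log2 fold change was 0.05, against -0.06 over all tested genes. The groups did not overlap for 5 of the 11, which is near the 40.1% of all tested genes. Leaving out a library lowered the number past the threshold to 2 without PBS 1 or PBS 3, and to 3 without PBS 2, L-proline 2 or L-proline 3. Over all 10500 tested genes the number also fell, from 2056 to 968 without PBS 1 and 870 without PBS 3. It was 1432 without PBS 2, 1528 without L-proline 2 and 1605 without L-proline 3. C8g and Thbd passed in each of these fits.

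Those that rose act at several steps. Properdin (Cfp), which stabilises the C3-cleaving enzyme that factor B forms, stood at 3.95, 1.94 and 3.14 FPKM in L-proline libraries and 1.84, 1.46 and 1.27 FPKM in PBS libraries. Its L-proline values were scattered but all above the PBS values (log2 fold change 0.64 ± 0.19; limma, adjusted p = 0.0467). That call was lost under 10 of 17 alternatives, among them leaving out any library other than L-proline 2 (adjusted p 0.013 to 0.161 over all 17). Properdin is known as a product of white blood cells, and of the macrophage list Cd68 also rose, at 5.19 ± 0.297 FPKM with L-proline and 3.17 ± 0.536 FPKM with PBS (SD, n = 3 each). Lyz2 and Cd14, the other macrophage markers above the filter, did not pass (log2 fold changes of 0.10 and 0.08; limma, adjusted p = 0.723 and 0.583), the summed macrophage markers overlapped between groups, and the part of such cells was not tested. C8g, the gamma chain of a membrane attack complex component, stood at 2.02, 2.05 and 1.97 FPKM with L-proline and 0.878, 1.22 and 0.920 FPKM with PBS. The groups were well apart, at 0.59 ± 0.10 on the log2 scale (limma, adjusted p = 0.00556). Cr1l, the rodent membrane regulator known as Crry, which controls C3 cleavage on host cells, averaged 18.75 ± 1.72 FPKM with L-proline and 14.7 ± 0.295 FPKM with PBS (SD, n = 3 each; log2 fold change 0.33 ± 0.08, limma, adjusted p = 0.0291). Its level lay above those of Cd55, Cd46 and Cd59a in every library, and its call was lost without L-proline 2 or without any PBS library (adjusted p 0.00101 to 0.122 over 18 alternatives). C1qbp, a mitochondrial protein also known to bind C1q, averaged 83.0 ± 2.17 FPKM with L-proline and 67.6 ± 4.47 FPKM with PBS (SD, n = 3 each; log2 fold change 0.29 ± 0.07, limma, adjusted p = 0.0251). The call of C1qbp was lost without L-proline 2, L-proline 3, PBS 1 or PBS 3 (adjusted p 0.00284 to 0.114 over 18 alternatives).

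Thbd, which codes for thrombomodulin, an anticoagulant receptor that also promotes inactivation of C3b, was the gene that fell. It stood at 44.0, 44.0 and 38.6 FPKM in L-proline libraries and 82.9, 85.1 and 86.35 FPKM in PBS libraries. Its log2 fold change was -0.99 ± 0.07 (limma, adjusted p = 0.000276), past the threshold in all 18 alternatives.

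Among the genes that did not pass, Masp1, a protease of the lectin pathway, averaged 15.1 ± 2.74 FPKM with L-proline and 18.5 ± 2.67 FPKM with PBS, and Colec12, a collectin scavenger receptor, 26.3 ± 4.17 FPKM and 31.6 ± 2.81 FPKM in the same order (SD, n = 3 each). The adjusted p of Colec12 was 0.157, with 0.0221 without L-proline 1 and 0.0124 with sample weights; that of Masp1 was 0.205. The classical protease copies C1rb (12.4 ± 1.56 FPKM with L-proline, 10.4 ± 1.67 FPKM with PBS) and C1s2 (18.4 ± 1.93 FPKM with L-proline, 17.65 ± 1.255 FPKM with PBS) and the related C1rl (10.56 ± 0.552 FPKM with L-proline, 10.8 ± 0.783 FPKM with PBS) did not pass, at 0.23, 0.05 and -0.02 on the log2 scale. The sign for C1s2 and C1rl turned under some settings. The other 12 listed genes, including C2, C9, Masp2, Clu, Vtn and the receptors C3ar1 and C5ar1, lay under the filter and did not exceed 1.28 FPKM in any library. Itgb2, a chain of the leukocyte receptors for C3 fragments, was the highest of these. It stood at 1.23 ± 0.0749 FPKM with L-proline and 0.764 ± 0.0365 FPKM with PBS (SD, n = 3 each). Its mean over the 6 libraries, 0.9974 FPKM, lay just under the filter. With the filter lifted, Itgb2 was among the 14.7% of 14408 genes that passed. It was 0.34 higher on the log2(FPKM + 1) scale (limma, adjusted p = 0.0101).

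**Figure D3:**
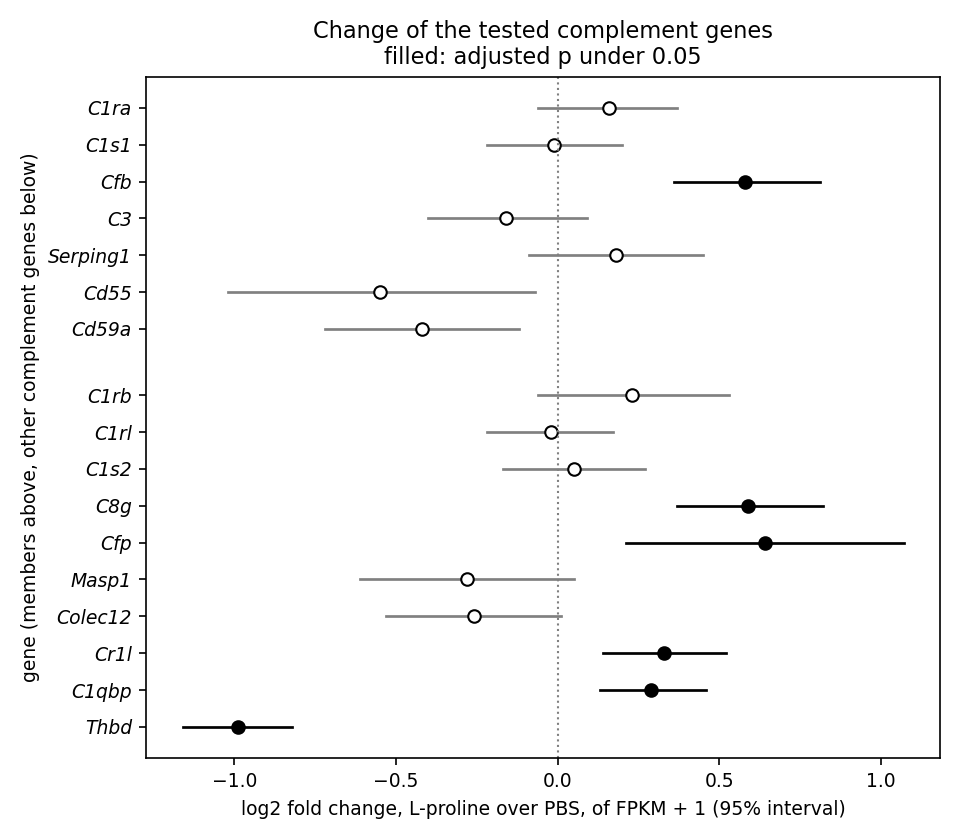
Log2 fold change of FPKM + 1, L-proline over PBS, with 95% intervals not adjusted for multiple tests, for the 7 tested members (above) and 10 other tested complement genes (below); filled points passed an adjusted p of 0.05. Cfb is the filled point among the members, at 0.58, and Thbd lies farthest to the left, at -0.99.

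Known inducers of complement genes were followed with a list of 20 cytokines, receptors and transcription factors, of which 15 were tested. Of these, 4 rose, 2 fell and 9 did not pass, against 19.6% of all tested genes past the threshold and 7.50% higher. Over all 10500 tested genes, 968 passed without PBS 1 and 870 without PBS 3, against 2056 with all libraries. The number of inducers past the threshold was 3 in each of those fits. Among those that rose, the interferon-activated factors Stat2 (40.9 ± 0.577 FPKM with L-proline, 23.8 ± 1.20 FPKM with PBS), Irf9 (42.1 ± 2.46 FPKM with L-proline, 19.1 ± 1.94 FPKM with PBS) and Irf1 (23.0 ± 1.19 FPKM with L-proline, 19.0 ± 0.244 FPKM with PBS) had limma adjusted p values of 0.000481, 0.000405 and 0.034 (SD, n = 3 each). The acute-phase factor Cebpd fell, at 51.3 ± 4.62 FPKM with L-proline and 66.0 ± 2.48 FPKM with PBS (limma, adjusted p = 0.0202). Il6, a cytokine that induces acute-phase genes in liver, also fell, at 50.02 ± 8.66 FPKM with L-proline and 69.7 ± 9.57 FPKM with PBS (SD, n = 3 each; limma, adjusted p = 0.0486). The groups overlapped for Il6, whose call was lost under 11 of 18 alternatives, among them leaving out L-proline 2, L-proline 3, PBS 1 or PBS 3 (adjusted p 0.000857 to 0.174). The call of Cebpd was lost without any 1 of the PBS libraries (up to 0.0865), and that of Irf1 without L-proline 3 or any 1 of the PBS libraries (up to 0.131). Cebpb, Stat3, Nfkb1 and Rela did not pass; their differences were 0.15, 0.04, 0.04 and 0.11 on the log2 scale. A link between these levels and those of Cfb or C4b was not tested.

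Over the 6 libraries, the tested genes whose log2 levels ran most like those of Cfb were Leng1, Eaf1 and Tmem165, with a Pearson r of 0.997, 0.996 and 0.996. All libraries enter this likeness, so the difference between groups is part of it. With predicted models, clones and pseudogenes left out, 686 tested genes had an r above 0.9. Leng1 averaged 6.09 ± 0.386 FPKM with L-proline and 4.17 ± 0.269 FPKM with PBS (SD, n = 3 each).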

How the data were processed

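RNA sequencing libraries were made from polyadenylated RNA with a NEBNext Ultra kit, per the labels' protocols. The authors deposited 1 table of FPKM values, already scaled to gene length and library total, with 1 column per library, per the file headers; HISAT2, HTSeq 0.13.5 and GRCm39 are named in the submitters' processing notes, with no roles. The kit's protocol names no strand marking, and whether strand was kept is unknown here. Fragments on bases shared by overlapping genes may therefore not have been told apart. Groups and replicate numbers came from the sample titles.

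Whole fragments were recovered from the FPKM steps, with each library's total worked out from 13 mitochondrial genes: 14402 of 14408 genes gave whole fragments within 0.01. One fragment on a 1 kb gene was worth 0.0267 to 0.0286 FPKM. The comparison of L-proline with PBS used limma 3.58.1 (R 4.3.3) on log2(FPKM + 1) values (empirical Bayes with a mean trend, two-sided, no block), over the 10500 genes with a mean of at least 1 FPKM, Benjamini-Hochberg adjusted, threshold 0.05. "Rose" and "fell" mean past that threshold. Named are all members, other complement genes with a mean of at least 1 FPKM, inducers past the threshold, and for each member past it the 3 tested genes most correlated with it, leaving out predicted models, clones and pseudogenes. Genes outside this rule are named for their levels. The members and lists were chosen with earlier results of these data known, and the motifs after the values were seen. The fit and the recovery of fragments were tested on simulated data.

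Alternatives changed the pseudocount (0.1, 0.5), filter (none, 5 FPKM), scaling, variance model, block, unit (limma voom on recovered fragments) and libraries, 1 at a time, except that voom with no filter, chosen after seeing the data, changed the unit and the filter together. Near copies and exon overlaps came from GENCODE M21 (GRCm38) and promoters from RefSeq (GRCm38.p6). Some genes on the lists are counted but not reported by name here.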

Additional observations from a re-analysis of the deposited data

How the results depend on the processing

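Cfb kept its direction and its call under all 18 alternatives run on it, with log2 fold changes of 0.46 to 0.64 and adjusted p values of 0.0029 to 0.027. C3, C1ra and Serping1 kept their direction without passing under all alternatives run on each. The number of members past the threshold, 1 of 7, became 2 with no filter (Cfb and C4b), with voom on recovered fragments and no filter (Cfb and C4b), with equal sums without the most abundant genes (Cfb and Cd59a) and with the replicate block (Cfb and Cd59a), and 3 with sample weights (Cfb, Cd55 and Cd59a). It was 1 to 2 when a library was left out. The causes were not tested, apart from the filter, which adds genes. The number of other complement genes past it, 5, was 3 with the filter at 5 FPKM, where 9 were tested, 6 with the replicate block, 7 with sample weights and 2 to 6 when a library was left out. The number of inducers past it, 6, was 3 to 7 when a library was left out, alternatives chosen after seeing the data. Over all genes the number was 2056, 4671 with sample weights and 870 to 2762 when a library was left out. The share of higher calls was larger with median-of-ratios scaling (1003 higher, 966 lower) and quantile normalization (1079 higher, 1015 lower) than in the main fit (788 higher, 1268 lower); both move the median of all genes by under 0.1.

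Signs turned only for genes without a call: C1s1 was 0.04 with median-of-ratios scaling and -0.07 to 0.06 with a library left out, C1rl was 0.02 with that scaling, 0.04 with quantile normalization, 0.02 with sample weights and -0.07 to 0.03 with a library left out, and C1s2 was -0.00068 to 0.14 with a library left out. Fits with 2 libraries in a group share 1 spread between groups.

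Same-numbered libraries deviated together in 2 of 3 pairs (correlations over genes of 0.65, 0.42 and -0.35). Pairs with unlike numbers ranged from -0.75 to 0.53. The numbers were not taken to pair libraries, since the labels do not say that they pair animals. The replicate block gave 2383 genes (908 higher, 1475 lower); with it Cd59a (adjusted p 0.0494) and Masp1 (adjusted p 0.0345) passed. C4b rests on 14 to 85 fragments per library and Cd46 on 6 to 47, which limits both.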
